A study of Mus musculus with 76 samples.

Results

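Irf8-positive and Irf8-negative cells were compared among 76 single mouse hematopoietic progenitors called iHPCs. A cell counted as positive when its Irf8 level was 10 TPM (length-scaled transcript abundance, set to sum to 1000000 in each cell) or more and as negative when it was under 1 TPM. This gave 42 positive and 32 negative cells, together 74 of the 76, and left out 2 cells between the thresholds. All cells belonged to 1 labelled group: progenitors derived from pluripotent stem cells in which Runx1, Hoxa9 and Hoxa10 were expressed inducibly and together. The sample labels give no other genotype, agent, time or strain of the cells; the deposited table is marked D21, a mark that the labels do not explain. The cells were sorted singly, and their polyadenylated RNA was amplified and sequenced one library per cell. Since no label ties a cell to a culture, clone or sort, the cells are not replicates of a condition, and all values below are descriptions without a test. TPM does not separate transcripts of the introduced Runx1, Hoxa9 and Hoxa10 from those of the chromosomal genes.

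Irf8 encodes interferon regulatory factor 8, a DNA-binding protein of blood cells that acts with partners such as PU.1, the product of Spi1. In bone marrow it is known for favouring monocyte and dendritic cell development over neutrophil development, and its loss in mice leads to an excess of granulocytes and a lack of several dendritic cell types. It binds interferon response elements and composite elements that join an ETS site to an IRF site, and it acts on genes of antigen presentation and phagocyte defence. Whether the other genes of those programmes differed between cells with and without Irf8 transcripts was the question addressed.

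Irf8 ranged from 11.3 to 360 TPM in the positive cells (median 67.4) and from 0 to 0.929 TPM in the negative cells, of which 17 were at exactly 0. The lowest positive cell stood at 11.3 TPM, the highest negative one at 0.929 TPM, and the cells left out at 3.36 and 3.68 TPM. The cells were chosen by these Irf8 values, which are given as a description only. An exact 0 in a single-cell library can be a transcript that was not captured, so a negative cell is one in which Irf8 was listed under 1 TPM, not one shown to lack it. Positive cells were spread over the titles, which carry a letter and a number: 20 of 36 cells with the numbers 2 to 6 were positive and 22 of 38 with the numbers 7 to 11.

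The sets differed in how many genes were seen per cell. Genes at 1 TPM or more numbered 4334.5 at the median in positive cells (range 3182 to 5992, SD 694) and 3998 in negative cells (range 2465 to 4718, SD 533). The ranges overlapped, but all cells above 4718 genes were positive. Ribosomal-protein transcripts took a median of 7.38% of TPM in positive and 8.06% in negative cells, and the 10 most abundant genes took 6.97% and 7.39%. Library depth is not kept in TPM and is unknown, so detection of any gene can move with it. For this reason 2 further values stand beside the plain difference where they matter. In a linear fit over the 74 cells the number of genes detected was a covariate, and in the shared range were 28 positive and 29 negative cells with 3182 to 4718 genes.

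**Figure D1:**
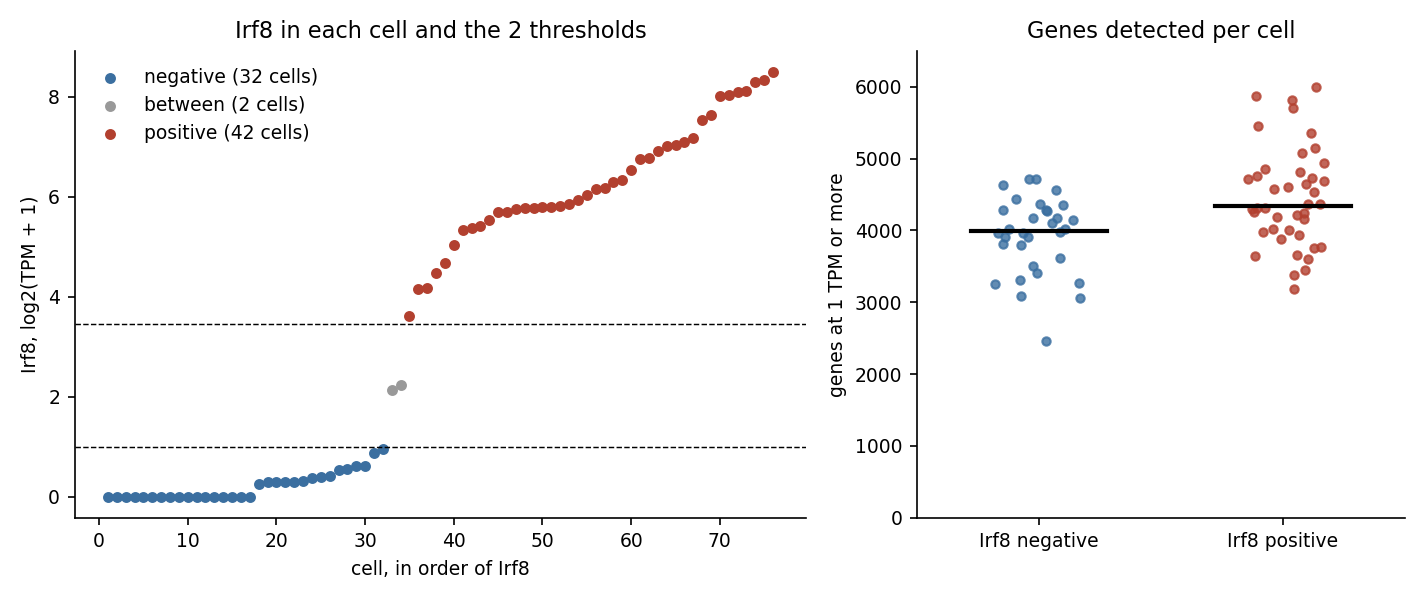
Left, Irf8 in each of the 76 cells in order of its level, as log2(TPM + 1), with dashed lines at the thresholds of 1 and 10 TPM; right, the number of genes at 1 TPM or more per cell, with a bar at the median. The 42 positive cells reach 5992 genes, while no negative cell exceeds 4718.

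The comparison across genes used the difference of mean log2(TPM + 1), positive minus negative, for the 7805 genes other than Irf8 that reached 10 TPM in at least 8 of the 76 cells. The filter counted the cells of both sets together, so a gene could pass through 1 set alone. A gene was called higher at a difference of 1 or more and lower at -1 or less. On this measure 1165 genes (14.9%) were higher and 126 (1.61%) lower in positive cells, and 70.3% of genes had a difference above 0. The median gene itself was shifted by 0.31 on the log2 scale, so a member's difference is best read against that shift. With genes detected as a covariate the median was 0.02, and the calls were 582 higher (7.46%) and 474 lower (6.07%). Within the shared range of genes detected the median was 0.05, with 720 genes higher and 503 lower. The counts per gene list below stand beside these shares of all genes. Subtracting the median from every gene left 600 higher and 323 lower. Of the 1165 higher genes 517 (44.4%) were still past the fold with the covariate, and of the 126 lower genes 113 (89.7%) were. Counted by cells rather than by level, 743 genes (9.52%) were at 10 TPM in a share at least 20 percentage points larger in positive cells and 33 (0.423%) in a share at least 20 points smaller. The spread between cells was wide throughout: no gene had ranges in the 2 sets that did not overlap, and no gene's difference exceeded the larger of its within-set SDs.

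The gene with the largest difference was Elf2, which encodes an ETS-family transcription factor. Its level in positive cells was 0 at the lowest, 18.4 at the median and 203 TPM at the highest, against 0, 0 and 127 TPM in negative cells. Elf2 reached 10 TPM in 23 of 42 positive cells (54.8%, 95% Clopper-Pearson interval 38.7 to 70.2%) and in 2 of 32 negative cells (6.25%, 0.766 to 20.8%); intervals here cover the counting of cells only. Mean log2(TPM + 1) was 3.52 ± 2.96 (SD, n = 42 cells) and 0.66 ± 1.71 (SD, n = 32 cells), a difference of 2.85, or 1.81 with the covariate. Elf2 was thus present in some positive cells and rare in negative ones.

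The other 11 genes at the top ran from 2.69 to 2.40. Several serve general cell functions. Gtpbp8, a predicted mitochondrial GTP-binding protein, was at 10 TPM in 27 positive and 8 negative cells. Rogdi, a partner of the vacuolar proton pump, was at 10 TPM in 38 and 17 cells. Glb1, the lysosomal beta-galactosidase, was in 34 and 14 cells. Grwd1, a ribosome assembly factor, was in 27 and 9 cells. Mrps18b, a protein of the mitochondrial ribosome, was in 35 and 17 cells, and Dync1i2, a dynein intermediate chain, in 31 and 11. Gpr108, a membrane protein, was in 30 and 11 cells, and Tmem97, a sterol-linked membrane protein, in 35 and 17. The remaining 3 of the 12, Clec10a, Anxa1 and Prtn3, are myeloid genes and are described with their groups. All 12 had a difference of at least 1 with the covariate as well.

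The 12 genes at the bottom ran from -2.30 to -1.71, and all 12 were also past the fold with the covariate. Klhl6, a ubiquitin ligase adaptor used by B cells, had a median of 2.90 TPM in positive and 265 TPM in negative cells, and it reached 10 TPM in 20 of 42 and 24 of 32. Ptprcap, a protein bound to the leukocyte phosphatase CD45, had medians of 217 and 508 TPM with a difference of -2.12. Usp10, a deubiquitinase, was at 10 TPM in 11 positive and 17 negative cells, Trafd1, an inhibitor of innate immune signalling, also in 11 and 17, and Ilvbl in 4 and 12. Eci1, an enzyme of fatty acid oxidation, was in 30 and 29 cells and Map2k4, a stress kinase, in 21 and 23. Tsc22d1, a leucine-zipper regulator, was in 27 and 26 cells. The others, Tox, Cd72, Nkg7 and Trat1, belong to lymphoid lists.

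**Figure D2:**
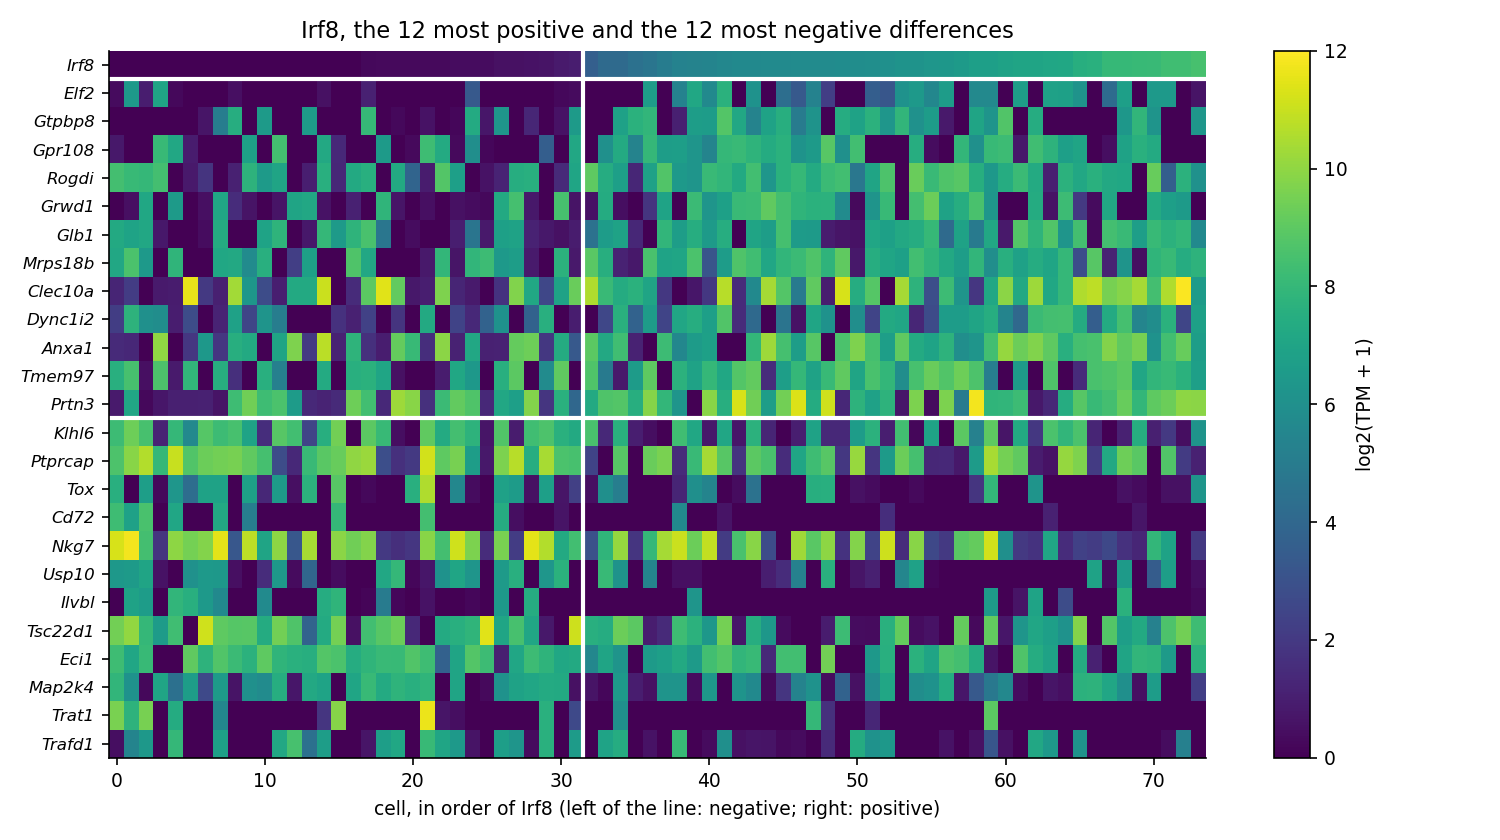
Heat map of log2(TPM + 1) for Irf8 and for the 12 genes with the most positive and the 12 with the most negative difference, with one column per cell in order of Irf8 and a white line between the 32 negative and the 42 positive cells. Both blocks are mixtures of cells with and without each transcript on either side of the line; Elf2 is at 10 TPM in 2 negative and 23 positive cells, Cd72 in 9 and 1.

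Among granulocyte genes 4 were higher, 1 was lower and 14 were neither, out of 19 that passed the filter (37 of the 42 on the list are in the table). Over all genes 14.9% were higher and 1.61% lower. With the covariate 5 granulocyte genes were higher and 1 lower, where 7.46% and 6.07% of all genes were. The granulocyte median difference was 0.31, the same as that of all genes, and 0.24 with the covariate, against 0.02 over all genes. Within titles numbered 2 to 6 and 7 to 11 it was 0.19 and 0.56. Prtn3 (proteinase 3, a protease of the primary granules) ranged from 0 to 3518 TPM with a median of 258 TPM in positive cells, and from 0.211 to 1202 TPM with a median of 101 TPM in negative cells. It reached 10 TPM in 36 of 42 positive cells (85.7%, 71.5 to 94.6%) and 18 of 32 negative cells (56.2%, 37.7 to 73.6%), a difference of 2.40 that was 1.93 with the covariate. The highest Prtn3 values lay in positive cells, and 38 positive and 28 negative cells were at 1 TPM or more.

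The other primary granule genes gave smaller values. Mpo, the myeloperoxidase of primary granules, reached 10 TPM in 23 positive and 14 negative cells (difference 0.64, covariate 0.37). Ctsg, cathepsin G, did so in 17 and 11 cells (difference 0.06, covariate 0.03). At least 1 of Mpo, Prtn3 and Ctsg was at 10 TPM in 37 of 42 positive cells (88.1%, 74.4 to 96.0%) and 24 of 32 negative cells (75%, 56.6 to 88.5%). All 3 were at 10 TPM in 12 positive cells (28.6%, 15.7 to 44.6%) and 5 negative cells (15.6%, 5.28 to 32.8%). Elane, the neutrophil elastase gene, was at 10 TPM in 2 positive and 0 negative cells, and 0 of 32 allows a share of up to 9.38%.

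Anxa1, which encodes the phospholipid-binding protein annexin A1 of neutrophils and macrophages, was among the widest differences of any gene. Its level in positive cells ran from 0 to 1229 TPM with a median of 306 TPM, and in negative cells from 0 to 1752 TPM with a median of 6.08 TPM. It was at 10 TPM in 37 of 42 positive cells (88.1%, 74.4 to 96.0%) and 15 of 32 negative cells (46.9%, 29.1 to 65.3%). The difference of 2.52 became 2.94 with the covariate. Among cells at 10 TPM the medians were 331 TPM in positive and 269 TPM in negative cells. The sets thus differed more in how many cells reached 10 TPM than in the level there. At 1 TPM or more Anxa1 was found in 38 of 42 positive and 28 of 32 negative cells, so most cells of both sets held some transcript.

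Mgst1, a microsomal glutathione transferase of early granulocytes, was at 10 TPM in 20 positive and 9 negative cells with a difference of 1.52. The Mgst1 difference was -0.30 within titles numbered 2 to 6 and 3.26 within titles numbered 7 to 11. Ms4a3, a membrane protein of granulocyte and monocyte progenitors, was at 10 TPM in 15 and 6 cells with a difference of 1.22. Serpinb1a, an inhibitor of granule proteases, was at 10 TPM in all 42 positive and in 29 of 32 negative cells, with medians of 756 and 571 TPM and a difference of 0.92. Srgn, the core protein of the granule proteoglycan, was at 10 TPM in every cell of both sets (difference -0.07). Genes of later neutrophils were at or near 0: S100a8, S100a9 and Camp were under 1 TPM in all cells, and 0 of 42 positive cells allows a share of up to 7.14%. The one member that was lower, Nkg7, is a granule protein of cytotoxic lymphocytes and is described with them.

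Monocyte and macrophage genes lay mostly above the shift of the median gene. Of 19 that passed the filter (38 of the 40 on the list are in the table), 6 were higher and none was lower, where 14.9% and 1.61% of all genes were. A difference above 0 was found in 18 of the 19, where 70.3% of all genes had one, and 15 lay above the median of all genes. Their median difference was 0.65, against 0.31 over all genes, and 0.58 with the covariate, against 0.02. With the covariate 5 were higher and none lower, where 7.46% and 6.07% of all genes were. Within titles numbered 2 to 6 and 7 to 11 the median was 0.65 and 0.94. The members past the fold were Ccl9, Cd68, Csf1r, Csf2rb, Pld4 and Emb.

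Csf1r, the receptor for the macrophage growth factor CSF1, was absent from most cells of both sets. Its median was 0 TPM in each, with a highest value of 209 TPM in positive and 200 TPM in negative cells. It was at 10 TPM in 12 of 42 positive cells (28.6%, 15.7 to 44.6%) and 3 of 32 negative cells (9.38%, 1.98 to 25%), a difference of 1.35 (covariate 1.20). Csf2rb, the shared beta chain of the receptors for GM-CSF, interleukin 3 and interleukin 5, had medians of 34.3 and 0.446 TPM and was at 10 TPM in 25 and 13 cells. Its difference was 1.29 and 1.8 with the covariate. Mice carry a close copy, Csf2rb2, so reads may have been divided between the copies. At least 1 of Csf1r and Csf2rb was at 10 TPM in 31 positive cells (73.8%, 58 to 86.1%) and 15 negative cells (46.9%, 29.1 to 65.3%).

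Ccl9, a chemokine made by myeloid cells, ran from 0 to 802 TPM with a median of 85.8 TPM in positive cells and from 0 to 1496 TPM with a median of 12.3 TPM in negative cells. The highest single cell was thus a negative one, although 33 of 42 positive and 16 of 32 negative cells were at 10 TPM (difference 1.70, covariate 1.79). Cd68, a lysosomal glycoprotein of macrophages, was at 10 TPM in 15 and 5 cells. Its difference of 1.36 was 0.37 with the covariate and 0.57 in the shared range, so it did not stay past the fold. Pld4, an endolysosomal nuclease, was at 10 TPM in 19 and 8 cells (difference 1.18), and Emb, the membrane glycoprotein embigin, in 41 and 29 cells (difference 1.02). Adgre1, which encodes the F4/80 antigen, was at 10 TPM in 32 and 22 cells (difference 0.85, covariate 1.18).

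Signalling adaptors of myeloid cells were in every cell of both sets. Tyrobp had medians of 2152 TPM in positive and 1699 TPM in negative cells (difference 0.32), and Fcer1g had 1776 and 1684 TPM (difference 0.19). Genes of more mature monocytes and macrophages were mixed. Cx3cr1, Cd14, Fn1, Klf4, Fcgr4, Mpeg1 and Clec4a3 were under 1 TPM in all cells, whereas Adgre1 and Cd68, given above, reached 10 TPM in cells of both sets. Ly6c2 reached 10 TPM in 1 positive and 1 negative cell and Ccr2 in 5 and 3. Summed over all 38 members in the table, the list took 2972 to 16860 TPM per positive cell with a median of 6046 TPM, and 1949 to 14463 TPM per negative cell with a median of 5289 TPM. The sums overlapped almost throughout, as a few genes present in every cell make up much of them.

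Of 14 dendritic cell genes that passed the filter (34 of the 38 on the list are in the table), 2 were higher, a share near the 14.9% of all genes, and 1 was lower. With the covariate 1 was higher and 1 lower, where 7.46% and 6.07% of all genes were. The median difference was 0.46, against 0.31 over all genes, and 0.54 with the covariate, against 0.02. Within titles numbered 2 to 6 and 7 to 11 it was 0.68 and 0.28. Clec10a, a C-type lectin of dendritic cells and macrophages, had the largest difference of any myeloid gene examined. In positive cells it ran from 0 to 3855 TPM with a median of 235 TPM, and in negative cells from 0 to 3082 TPM with a median of 4.16 TPM. Clec10a reached 10 TPM in 33 of 42 positive cells (78.6%, 63.2 to 89.7%) and 14 of 32 negative cells (43.8%, 26.4 to 62.3%). The difference was 2.54, 3.03 with the covariate and 3.39 in the shared range. With the covariate Clec10a was first and Anxa1 second of the 7805 genes from the top. The negative cells that reached 10 TPM held much of it: the median among cells at 10 TPM was 447 TPM in positive and 582 TPM in negative cells.

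Flt3, a receptor tyrosine kinase needed for dendritic cell progenitors and also present in early lymphoid ones, was at 10 TPM in 26 of 42 positive cells (61.9%, 45.6 to 76.4%) and 13 of 32 negative cells (40.6%, 23.7 to 59.4%). Its medians were 42.9 and 0.343 TPM. The difference of 1.5 was 0.88 with the covariate and 0.59 in the shared range, below the fold in both. Id2, an inhibitor of E proteins that dendritic and innate lymphoid cells use, was the lower member: its medians were 48.1 TPM in positive and 129 TPM in negative cells, with a difference of -1.44 (covariate -1.52). Tcf4, the E protein of plasmacytoid dendritic cells, was at 10 TPM in 29 and 19 cells (difference 0.45). Irf7, a regulator of interferon genes, was at 10 TPM in 11 and 5 cells (0.80) and Tlr7, an RNA sensor, in 7 and 1 (0.75).

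Several other members of the dendritic cell list were rare or absent in both sets, unlike Clec10a and Flt3. Xcr1, Irf4, Cd209a, Tlr9 and Btla were under 1 TPM in all cells. Batf3 reached 10 TPM in 2 positive and 1 negative cell, Itgax in 1 and 1, and Zbtb46 in 0 and 1. Bst2 and Plac8, which plasmacytoid cells share with many others, were at 10 TPM in most cells of both sets (35 and 26 cells, 34 and 26 cells), with differences of 0.43 and -0.10. Their differences with the covariate were -0.37 and -0.96.

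Of 8 genes of antigen presentation by MHC class II that passed the filter, 1 was higher and none lower, a share below the 14.9% of all genes, and with the covariate none was past the fold. The median was 0.74, against 0.31 over all genes, and 0.69 with the covariate, against 0.02. H2-DMa, a chain of the peptide-loading molecule DM, ranged from 0 to 216 TPM with a median of 79.7 TPM in positive cells and from 0 to 409 TPM with a median of 2.56 TPM in negative cells. It was at 10 TPM in 30 and 14 cells, a difference of 1.25 (covariate 0.73, shared range 0.27). On mean TPM the order turned, with a log2 ratio of -0.32, since the negative cells with the transcript held more of it (median 194 TPM among those at 10 TPM, against 108 TPM). The genes of the other DM chain, H2-DMb1 and H2-DMb2, were at 10 TPM in 7 and 1 and in 8 and 2 cells, each with a difference of 0.99, although reads of these close copies may have been divided between them. H2-Ab1, a class II chain itself, was at 10 TPM in 20 and 17 cells (difference -0.48), and Cd74, the invariant chain, in 12 and 8 (difference -0.06). Ciita, the class II master regulator, was under 1 TPM in all cells. Ctss, the protease that trims the invariant chain, was at 10 TPM in 13 and 6 cells (difference 0.88).

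**Figure D3:**
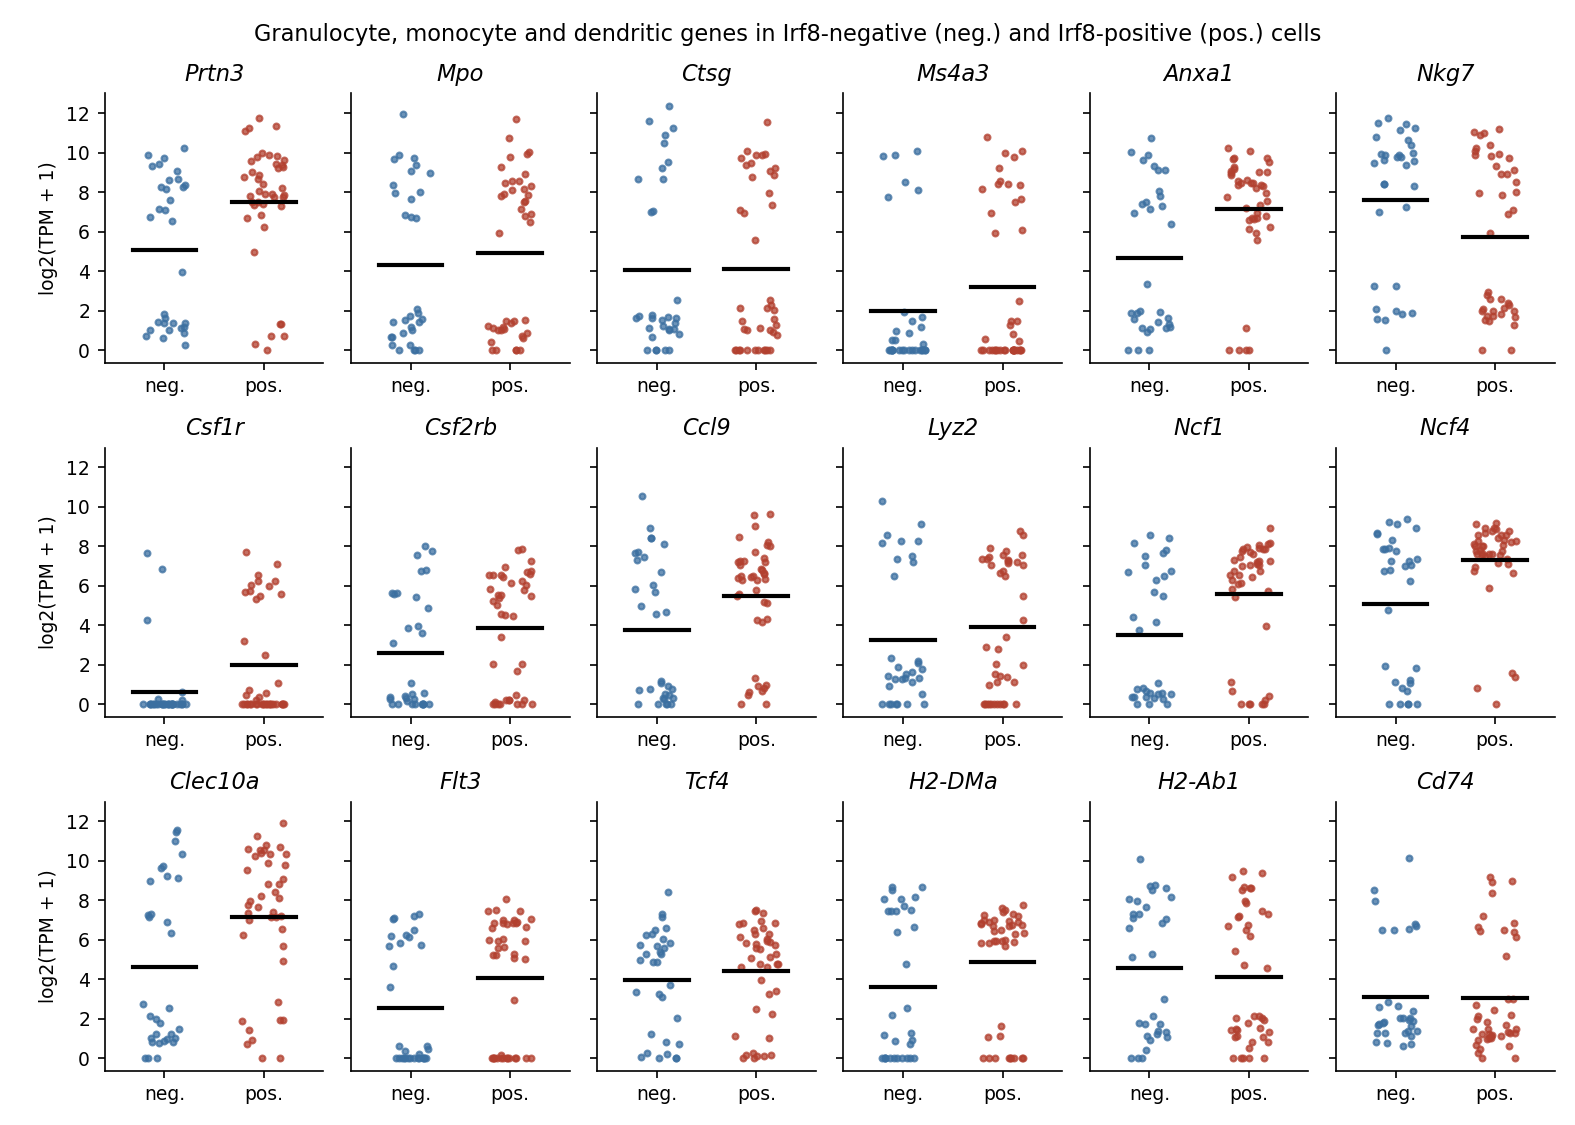
Each dot is 1 cell, as log2(TPM + 1) in the 32 negative (neg.) and 42 positive (pos.) cells, for granulocyte genes (top row), monocyte, macrophage and oxidase genes (middle row) and dendritic and class II genes (bottom row); bars are means. Most genes form an upper and a lower cloud in both sets, and for Clec10a (33 positive and 14 negative cells at 10 TPM), Anxa1 (37 and 15) and Ncf4 (38 and 20) the upper cloud holds more of the positive cells.

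Genes of the phagocyte oxidase were read as a set of partners. The NADPH oxidase makes superoxide in phagocytes from a membrane pair, encoded by Cyba and Cybb, and cytosolic subunits that include the products of Ncf1 and Ncf4. Ncf1 and Ncf4 were both past the fold, higher in positive cells. Ncf4 ran from 0 to 586 TPM with a median of 242 TPM in positive cells and from 0 to 664 TPM with a median of 119 TPM in negative cells. Ncf4 reached 10 TPM in 38 of 42 (90.5%, 77.4 to 97.3%) and 20 of 32 cells (62.5%, 43.7 to 78.9%), a difference of 2.22 (covariate 2.24). Ncf1 had medians of 119 and 6.98 TPM and was at 10 TPM in 33 and 16 cells, a difference of 2.1 (covariate 2.2).

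The membrane subunits gave smaller values. Cyba was at 10 TPM in every cell, with medians of 1576 TPM in positive and 1238 TPM in negative cells (difference 0.28). Cybb was at 10 TPM in 3 positive and 0 negative cells and did not pass the filter. Of the 26 oxidase and lysosome genes that passed, 6 were higher and 1 lower, where 14.9% and 1.61% of all genes were. Their median was 0.25, below the 0.31 of all genes, and 0.16 with the covariate, above the 0.02 of all genes. Higher lysosomal members were Grn, progranulin (1.75, covariate 0.88), Ctsz, cathepsin Z (1.35, covariate 0.85), and Cd68. Most lysosomal members lay within the fold in either direction.

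The sequences around the start sites of the named genes were searched for the letters of the 2 elements that IRF8 is known to bind. These are GGAA, any 2 bases and then GAAA, called here the composite ETS and IRF element, and GAAA, any 2 bases and then GAAA, called the interferon response element, each on either strand in the RefSeq window of 250 bases before to 50 after each start (build GRCm38.p6). The patterns cannot both match at the same place on the same strand. A window was at hand for 60 of the 79 named genes, and 7 held a match. Srgn and Blvrb each also had a window at another start site, which held no match. For these genes the start given below is therefore only 1 of their start sites. The matches are shown because they put the letters beside the values above; each stretch reads 5′ to 3′ on the gene's strand, with the match in capitals.
Ncf1, chr5:134229688-134229717, minus strand, interferon response element from base 82 before the start: aaaattctcaGAAAGTGAAAgactaagtct
Cd68, chr11:69666128-69666157, minus strand, composite element as its reverse complement from base 24 after the start: aagtgaggctTTTCATTTCCtcttccaaga
Etv6, chr6:134035697-134035726, plus strand, interferon response element as its reverse complement from base 8 after the start: cagttctgccTTTCAGTTTCtctcttccag
Ctss, chr3:95526755-95526784, plus strand, interferon response element from base 21 before the start: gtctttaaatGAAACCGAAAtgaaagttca
Bst2, chr8:71537583-71537612, minus strand, the first of a pair of overlapping interferon response element matches, from base 130 before the start: ggcattccagGAAAATGAAActgaaaggct
Srgn, chr10:62507958-62507987, minus strand, interferon response element from base 220 before the start: gagctttttgGAAAAAGAAAaaataataac
Blvrb, chr7:27452192-27452221, plus strand, composite element from base 216 before one of its start sites: gtgggtcctgGGAATGGAAAccagatcttc

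These 7 genes did not share a direction: Ncf1, Cd68 and Etv6 were higher in positive cells, Ctss (0.88), Bst2 (0.43), Srgn (-0.07) and Blvrb (-0.48) were not past the fold. Across genes the shares of windows with either element were close in the sets compared. The composite element was in 2.72% of all 32851 windows, 2.32% of those of genes that passed the filter, 2.09% of those of higher genes (22 of 1054) and 3.39% of those of lower genes (4 of 118). The interferon response element was in 3.44%, 3.01%, 3.04% (32 of 1054) and 2.54% (3 of 118). For Ncf1, the gene with both a match and a difference above 2, the whole 250 bases before the start (chr5:134229626-134229875, minus strand) read as follows.
Ncf1 upstream: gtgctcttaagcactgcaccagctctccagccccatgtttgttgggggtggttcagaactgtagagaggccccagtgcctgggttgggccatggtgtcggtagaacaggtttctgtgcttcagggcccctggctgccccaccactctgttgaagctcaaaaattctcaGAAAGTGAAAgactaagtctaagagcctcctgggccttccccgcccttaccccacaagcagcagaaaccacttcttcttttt

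Among 34 regulators of myeloid fate that passed the filter, 4 were higher and 3 lower, with a median of 0.37 that was 0.00 with the covariate (2 higher, 5 lower). Over all genes 14.9% were higher and 1.61% lower, and with the covariate 7.46% and 6.07%. Spi1, whose product PU.1 is the best known partner of IRF8, was high in nearly all cells. It ran from 6.78 to 1696 TPM with a median of 579.9 TPM in positive cells, and from 0.639 to 1349 TPM with a median of 424 TPM in negative cells. Spi1 reached 10 TPM in 41 of 42 (97.6%, 87.4 to 99.9%) and 27 of 32 cells (84.4%, 67.2 to 94.7%). The difference was 1.23, 1.26 with the covariate and 1.66 in the shared range. It rests more on the few negative cells under 10 TPM than on the level in the others. Among cells at 10 TPM the medians were 588 and 481 TPM.

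The other higher regulators were Id1, an inhibitor of basic helix-loop-helix factors (31 and 18 cells at 10 TPM, difference 1.52), Etv6, an ETS-family repressor (22 and 9 cells, 1.24), and Cebpb, a factor of monocytes and granulocytes (40 and 26 cells, 1.06). With the covariate Id1 was at 1.14, Etv6 at 0.98 and Cebpb at 0.78. The lower ones were signal transducers of cytokine receptors and Id2. Stat5a was at 10 TPM in 8 positive and 14 negative cells (difference -1.59, covariate -1.67), and Stat3 in 27 and 25 (difference -1.16, covariate -1.81). Runx1, one of the introduced factors, was at 10 TPM in 40 and 28 cells (difference 0.38). Hoxa9 or Hoxa10 was at 10 TPM in 11 of 42 (26.2%, 13.9 to 42%) and 8 of 32 cells (25%, 11.5 to 43.4%). Cebpa, the granulocyte and monocyte commitment factor, was at 10 TPM in 8 and 4 cells (0.33), Gfi1, a neutrophil regulator, in 9 and 7 (0.00), and Klf4, a monocyte regulator, was under 1 TPM in all cells.

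Of 22 receptors for blood cytokines that passed the filter 5 were higher, where 14.9% of all genes were, and none lower. With the covariate 3 were higher, where 7.46% of all genes were. The median was 0.38, against 0.31 over all genes, and 0.28 with the covariate, against 0.02. Besides Flt3, Csf1r and Csf2rb these were Il6ra, a chain of the interleukin 6 receptor (11 and 2 cells at 10 TPM, difference 1.23, covariate 1.12), and Il10rb, a chain of the interleukin 10 receptor (29 and 18 cells, 1.05, covariate 0.81). Csf3r, the receptor for the granulocyte growth factor G-CSF, was at 10 TPM in 11 and 7 cells (0.14).

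Interferon response genes gave no common direction. Of 32 that passed, 3 were higher and 2 lower, where 14.9% and 1.61% of all genes were. Their median was 0.12 (-0.11 with the covariate, 0.60 and -0.11 within titles numbered 2 to 6 and 7 to 11). The higher ones were Trim30a (16 and 5 cells at 10 TPM, 1.29), Samhd1, a nucleotide hydrolase (30 and 16 cells, 1.19), and Ifitm3, a membrane protein that limits virus entry (40 and 28 cells, 1.17). The lower ones act in peptide loading of MHC class I. Tap1, a chain of the peptide transporter, had medians of 0.196 TPM in positive and 13 TPM in negative cells and a difference of -1.59 (covariate -2.06). Tapbp, tapasin, had medians of 43.2 and 138 TPM and a difference of -1.32 (covariate -1.58). B2m, the light chain of class I, was at 10 TPM in every cell (-0.07). Interferon response genes past the fold with the covariate were 2 higher and 5 lower, where 7.46% and 6.07% of all genes were.

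T lymphoid transcripts past the fold were all lower in positive cells. Of 6 T lymphoid genes that passed the filter, none was higher and 3 were lower, where 14.9% and 1.61% of all genes were. With the covariate 4 were lower, where 6.07% of all genes were. The T lymphoid median was -0.92 (-1.50 with the covariate), and all 6 lay below the median of all genes. Within titles numbered 2 to 6 and 7 to 11 the median was -0.43 and -1.50. Tox, a regulator of T cell and innate lymphoid development, was at 10 TPM in 10 of 42 positive cells (23.8%, 12.1 to 39.5%) and 16 of 32 negative cells (50%, 31.9 to 68.1%), with medians of 0.116 and 11.2 TPM and a difference of -2.06. Trat1, an adaptor of the T cell receptor, was at 10 TPM in 3 and 8 cells (-1.71). Tcf7, the T cell factor TCF1, was in 6 and 8 cells (-1.23, and -0.98 without 1 cell), and Lck, a T cell kinase, in 15 and 14 cells (-0.62, covariate -1.46). Cd3e and Bcl11b, also on the T lymphoid list, were under 1 TPM in all cells. The alpha and beta chain genes of the T cell receptor were not on the list.

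Nkg7, a granule membrane protein of natural killer and cytotoxic T cells, had the lowest value of the 7805 genes with the covariate. It ran from 0 to 2352 TPM with a median of 89.7 TPM in positive cells and from 0 to 3487 TPM with a median of 739 TPM in negative cells. It was at 10 TPM in 22 of 42 (52.4%, 36.4 to 68%) and 23 of 32 cells (71.9%, 53.3 to 86.3%). The Nkg7 difference of -1.89 was -3.43 with the covariate and -4.17 in the shared range. Gzma and Gzmb, the granzymes that cytotoxic cells load beside it, were each at 10 TPM in 2 positive and 4 negative cells, and Ncr1, Klrd1 and Eomes were under 1 TPM in all cells.

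Only 2 B lymphoid genes passed the filter, of which 1, Cd72, was lower and none higher. Cd72 passed through its negative cells, as the positive cells alone would have been too few. Cd72, a B cell surface inhibitor, was at 10 TPM in 1 of 42 positive cells (2.38%, 0.0603 to 12.6%) and 9 of 32 negative cells (28.1%, 13.7 to 46.7%), with highest values of 50.1 and 375 TPM and a difference of -1.90 (covariate -1.95). Cd79b, a chain of the B cell receptor, was at 10 TPM in 17 and 8 cells (0.87, not past the fold, and -0.11 with the covariate). Cd79a, another chain of that receptor, was under 1 TPM in all cells. Of 10 early lymphoid genes 2 were higher, Flt3 among them, and 2 lower, Ltb, lymphotoxin beta (19 and 18 cells, -1.01), and Cd27, a co-stimulatory receptor (14 and 14 cells, -1.02). Over all genes 14.9% were higher and 1.61% lower.

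Of 13 surface genes of stem and progenitor cells 3 were higher (Flt3 and Cd48 among them) and none lower, where 14.9% and 1.61% of all genes were. Among these surface genes 10 lay above the median of all genes. Their median was 0.50, against 0.31 over all genes, and 0.45 with the covariate, against 0.02, with 2 higher. Kit was at 10 TPM in 20 and 12 cells (0.53, covariate -0.05). Kit and Ly6a were together at 10 TPM in 13 of 42 (31%, 17.6 to 47.1%) and 8 of 32 cells (25%, 11.5 to 43.4%). Of 13 regulators of these cells 2 were higher, Etv6 and Lmo2 (28 and 17 cells, 1.21, covariate 1.99), and the median was 0.01; with the covariate 1 was higher and 2 were lower. Gata2, a factor of stem, mast and basophil cells, was at 10 TPM in 17 of 42 (40.5%, 25.6 to 56.7%) and 15 of 32 cells (46.9%, 29.1 to 65.3%), with a difference of -0.35. Cpa3, the mast cell carboxypeptidase, was lower (medians of 88.1 and 395 TPM, -1.16, and -0.95 without 1 cell), and Siglecf, an eosinophil lectin, higher (15 and 6 cells, 1.03, covariate 0.84).

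Markers of other cells were also read in both sets, beside 14.9% of all genes higher and 1.61% lower. Of 4 erythroid genes that passed, 1 was higher: Hbb-bs, a beta globin, at 10 TPM in 41 positive and 24 negative cells with medians of 965 and 844 TPM (1.36). Beta globin genes are near-identical copies, so reads may have been divided among them. Gata1, Hba-a1 and Epor were under 1 TPM in all cells. No megakaryocyte gene of 6 was past the fold. Of 4 endothelial genes Egfl7 was higher (41 and 26 cells, 1.15, covariate 0.91), while Kdr, Tek and Cldn5 were under 1 TPM in all cells. Pdgfrb, the only stromal gene that passed, was at 10 TPM in 4 and 8 cells (-0.85), with Col1a1 and Col1a2 under 1 TPM in all cells. No pluripotency gene passed, and Pou5f1 was under 1 TPM in all cells.

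**Figure D4:**
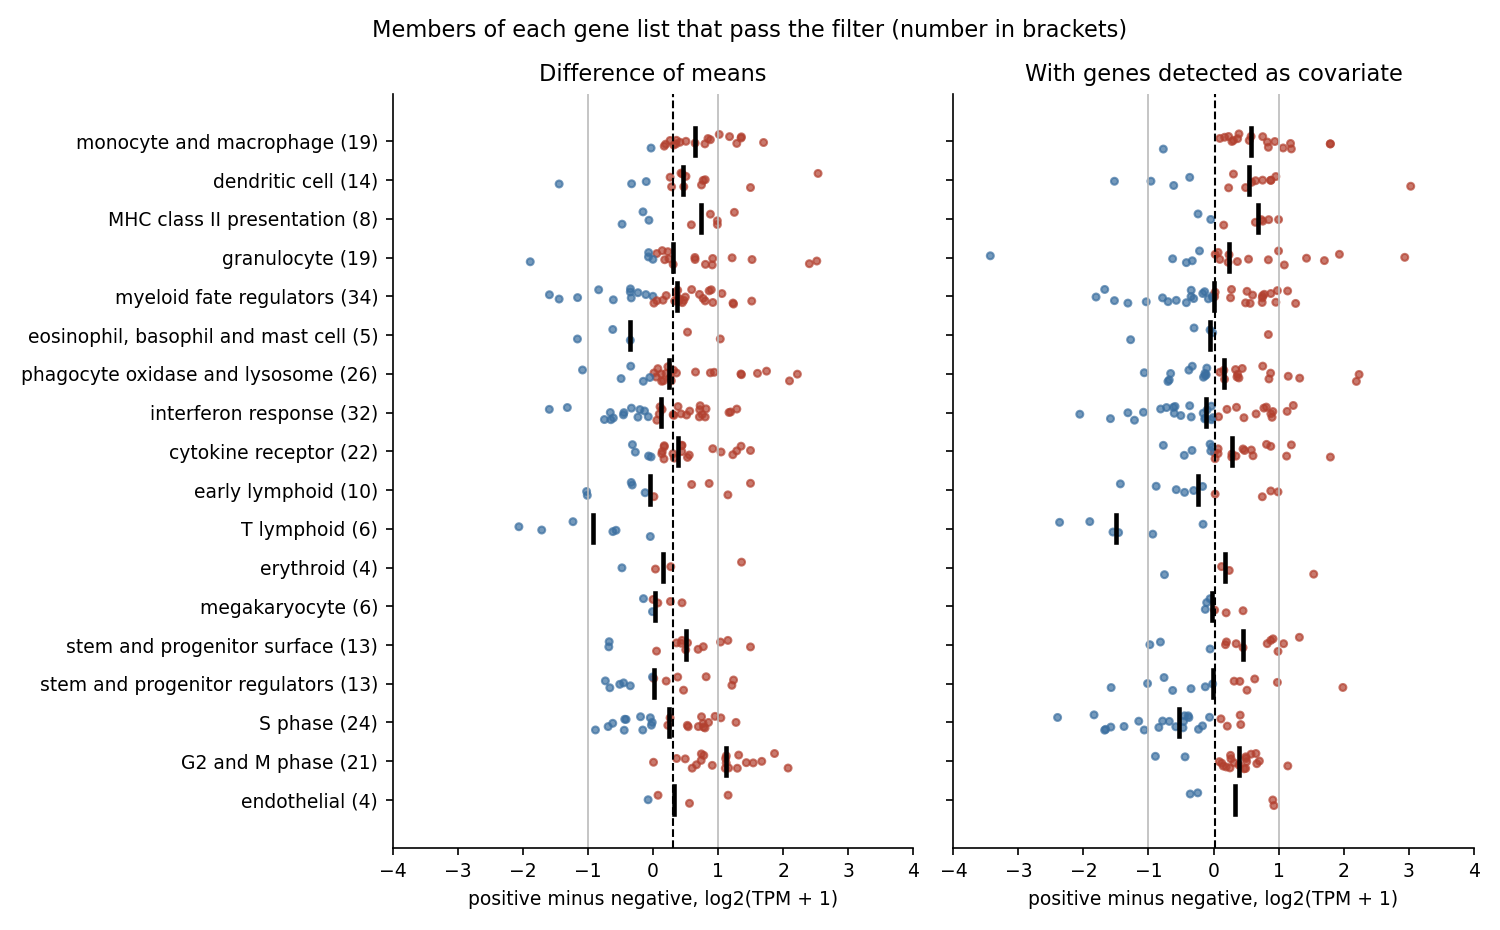
Each dot is 1 gene of a list that passed the filter, with the number per list in brackets; the x axis is the difference of mean log2(TPM + 1), positive minus negative, plain (left) and with genes detected per cell as a covariate (right). Short bars are list medians, the dashed line is the median of all 7805 genes (0.31 and 0.02) and grey lines mark -1 and 1; the monocyte list stays right of the dashed line in both panels (0.65 and 0.58), the T lymphoid list left of it (-0.92 and -1.50), and the G2 and M list moves from 1.12 to 0.39.

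Cell cycle genes moved with genes detected. Of 21 G2 and M phase genes that passed the filter 12 were higher, where 14.9% of all genes were, and none lower, with a median of 1.12. With the covariate 1 was higher, where 7.46% of all genes were, and the median was 0.39. Ube2c, a ubiquitin-conjugating enzyme of mitosis, was at 10 TPM in 12 of 42 positive cells (28.6%, 15.7 to 44.6%) and 1 of 32 negative cells (3.12%, 0.0791 to 16.2%), with highest values of 2518 and 117 TPM. Its difference of 2.08 was 1.14 with the covariate. Birc5, survivin, was in 15 and 6 cells (1.87, covariate 0.70), and Aurkb, the aurora B kinase, in 14 and 3 (1.67, covariate 0.58). Bub1, a spindle checkpoint kinase, was in 9 and 0 cells (1.13, covariate 0.47), so it passed the filter without any negative cell.

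At least 5 of the 23 G2 and M genes in the table were at 10 TPM in 21 of 42 positive cells (50%, 34.2 to 65.8%) and 11 of 32 negative cells (34.4%, 18.6 to 53.2%). Of 24 S phase genes, 2 were higher (Rpa2 and Ung), where 14.9% of all genes were, and none lower, with a median of 0.25. With the covariate none was higher and 8 were lower, where 6.07% of all genes were lower, and the median was -0.52. The lowest with the covariate was Mcm5, a subunit of the replicative helicase (19 and 18 cells at 10 TPM, difference -0.88, covariate -2.40). Which part of these differences goes with the cell cycle and which with genes detected was not tested.

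**Figure D5:**
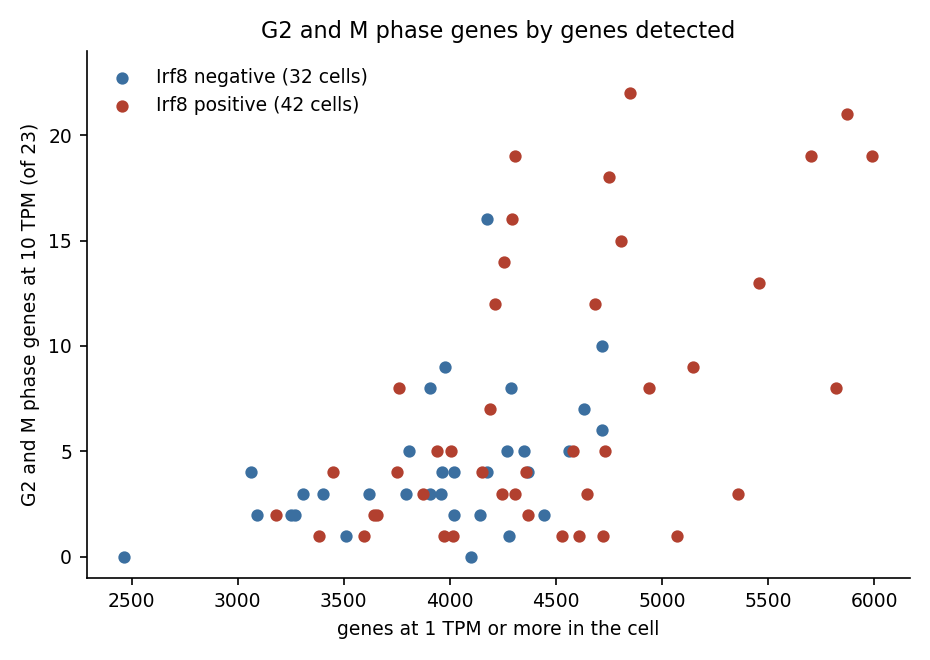
Each dot is 1 cell: on the x axis the number of genes at 1 TPM or more, on the y axis how many of the 23 G2 and M phase genes were at 10 TPM, for 32 Irf8-negative and 42 Irf8-positive cells. Cells above 4718 genes are all positive, and cells with 5 or more such genes number 21 positive and 11 negative.

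Within the positive cells, the level of Irf8 varied enough to set the 21 cells with more Irf8 (70.3 to 360 TPM, median 136) beside the 21 with less (11.3 to 64.6 TPM, median 50.4). This split uses the same Irf8 values that chose the cells, so it is a description and no support for the comparison above. Genes detected were close, with medians of 4308 and 4531. Here 812 genes (10.4%) were higher and 779 (9.98%) lower in the cells with more Irf8 by the same fold, so differences of this size were about as common in either direction. Clec10a was at 10 TPM in 19 of 21 cells with more Irf8 and 14 of 21 with less (medians of 344 and 166 TPM, difference 2.41), and Anxa1 in 21 and 16 (medians of 354 and 148 TPM, difference 2.13). Nkg7 was at 10 TPM in 8 and 14 cells (difference -2.83).

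Prtn3 was at 10 TPM in 17 of the 21 cells with more Irf8 and 19 of the 21 with less (difference -0.61), Ncf1 in 14 and 19 (-1.29), Ncf4 in 19 and 19 (-0.03) and Spi1 in 20 and 21 (-0.27). Gata2 was at 10 TPM in 13 of the 21 cells with more Irf8 and 4 of the 21 with less, with medians of 30.4 and 0 TPM and a difference of 2.63. The lymphoid genes Lat and Satb1, chosen after their values were seen, lay the other way: Lat, a T cell adaptor, was at 10 TPM in 12 and 20 cells (-3.27), and Satb1, a chromatin organiser of lymphoid progenitors, in 2 and 11 (-2.18). Basophil protease Mcpt8 was at 10 TPM in 0 and 5 cells.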

How the data were processed

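Single-cell RNA was measured in 76 iHPCs, all in 1 labelled group. The authors deposited 1 table of TPM values for 15192 genes with a column per cell, each summing to 1000000, so depth is unknown and precision rests on the number of cells. The submitters' processing notes name StringTie 1.3.4, HISAT2 2.1.0, SAMtools 0.1.19 and bcl2fastq with the build mm10; the annotation is not given in the sources used here. Per the labels' protocols, Vazyme kits were used for cDNA (Discover-sc WTA V2) and for libraries (TruePrep V2). Of all values 66.3% were 0. No doublet caller was run, since each library came from 1 sorted cell; the highest correlation between any pair of cells was 0.77.

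Differences of mean log2(TPM + 1), positive minus negative, were computed with Python 3.11.15, numpy 2.4.6, pandas 2.3.3 and scipy 1.17.1, for genes at 10 TPM in at least 8 cells. No p-value was made, since cells are not replicates, and a difference of 1 stands in for a call. A difference on this scale understates that of low genes. Strand use is not given, so reads of overlapping genes cannot be told apart. A TPM value is a share, so a gene can move because others do. Shares of cells at 10 TPM carry 95% Clopper-Pearson intervals; for 0 cells, 3 counts give the limit.

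The 22 lists held 461 genes, of which 421 were in the table, 5 of them under an older symbol matched through RefSeq (GRCm38.p6), which held 92.3% of the listed symbols. The thresholds, the lists and the compared cells were chosen with earlier results of these data known. Named genes were the 12 with the most positive and the 12 with the most negative difference (ribosomal-protein genes and unnamed gene models left out). To these were added the 4 members with the largest absolute difference and the 2 in most cells of each of 5 myeloid lists, the 2 largest of every other list, and Tcf7, Lck, Flt3, Gata2, Kit, Hoxa9, Hoxa10, Runx1, Cd74, Elane, S100a8 and S100a9. Further list members are named to complete a list or a group of partners and were chosen after their values were seen. Some genes taken by the rule are not named in the text. Sequences came from RefSeq, and those on chromosome 18 were not used. Alternatives were other Irf8 thresholds, pseudocounts, gene filters and cell sets, a ratio of mean TPM, TPM without ribosomal-protein genes, values under 10 TPM set to 0, the covariate, title numbers and each cell left out in turn. The shared range of genes detected and the centring on the median gene were added after seeing the data.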

Additional observations from a re-analysis of the deposited data

How the results depend on the processing

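The 51 named genes past the fold kept their sign under every setting run except 3. On the log2 ratio of mean TPM H2-DMa was -0.32 and Siglecf -0.022, and in titles numbered 2 to 6 Mgst1 was -0.30. From 27 (pseudocount 10, and the ratio) to 51 stayed past the fold. The counts of higher and lower genes, 1165 and 126, moved most. They were 2246 and 314 at a pseudocount of 0.1, 167 and 13 at 10, and 653 and 351 on the ratio of mean TPM. They were 582 and 474 with the covariate, 720 and 503 in the shared range of genes detected, and 600 and 323 after centring on the median gene. In titles numbered 7 to 11 they were 1876 and 355. Lower genes alone numbered 432 in titles numbered 2 to 6, 233 in cells with at least 3500 genes and 304 with negative cells at exactly 0 Irf8. Leaving out each cell in turn gave 1107 to 1253 higher and 114 to 142 lower genes; the granulocyte median ran from 0.18 (without the cell titled H9) to 0.51 (without F10) and the monocyte median from 0.53 to 0.84. With each cell left out in turn 45 of the 51 named genes stayed past the fold. Among the others, leaving out 1 cell took Cpa3 (-0.95) and Tcf7 (-0.98, both without H6), Siglecf (0.90, without G8), Ung (0.90, without E10) and Egfl7 (0.94, without E9) to within the fold. Without 1 cell Irf7 reached 1.03, H2-DMb1 1.19, H2-DMb2 1.21, Ctss 1.09, Serpinb1a 1.01, Cd79b 1.09 and Pdgfrb -1.01.

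The list medians turned or moved as follows. On the ratio of mean TPM the class II median was -0.095, the granulocyte -0.023, the monocyte 0.16 and the regulator median 0.11. With no gene filter the dendritic median was -0.00321, the monocyte 0.32 and the class II median 0.16. The regulator median was -0.026 in the shared range, where the class II median was 0.44. It was 0.00180 with the covariate, 0.12 in cells with at least 3500 genes and 0.073 in titles numbered 7 to 11, where the monocyte median was 0.94. Centring gave 0.34 for monocyte, 0.16 for dendritic, 0.43 for class II, 0.00364 for granulocyte and 0.066 for regulator genes. A pseudocount of 10 gave 0.34 for monocyte and 0.36 for class II genes. The granulocyte median was 0.69 with positive cells at 50 TPM or more and 0.65 with genes at 10 TPM in at least 20 cells, and the monocyte median 0.94 with negative cells at 0 Irf8. The cause of these shifts was not tested. No paired analysis was possible because all cells belong to 1 group and carry no replicate numbers that join them. Depth is unknown, which limits what an undetected gene can show.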
